A study of Mus musculus with 4 samples.

Results

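Cstf3 encodes CstF77, a subunit of the cleavage stimulation factor. This factor binds nascent RNA just beyond a poly(A) site and helps the cleavage machinery to cut there. CstF77 holds the complex together: it dimerises and carries CstF64, the subunit that contacts U- and GU-rich RNA. The gene is also known for a poly(A) site inside one of its introns, where cleavage yields a short transcript instead of the full-length mRNA. The members described here are the cleavage sites on the plus strand of chr2:104428000-104508000 in the mm9 build, which holds Cstf3. Of 14 such sites with any read, 5 had 3 or more reads and were kept, out of 56206 kept sites in the whole series. The deposited CstF64 crosslinks in this window are described beside them.

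The series has 4 samples. The first is RNA of a mix of 11 mouse cell lines supplied by Agilent, bound to beads through the CU5T45 oligo, made of 5 U and 45 T, and released with RNase H. The second is RNA of the same mix bound to oligo(dT)10-25 beads, as in ordinary poly(A) selection. Both are 3'READS libraries, in which each read gives the position of a cleaved and polyadenylated 3′ end, and each oligo has 1 library. The other 2 files are CLIP-seq of CstF64 in proliferating mouse myoblasts of the C2C12 line: RNA crosslinked to CstF64 by UV light was trimmed with RNase T1, precipitated with an antibody, and sequenced. The lines of the mix are not named in the labels, so whether C2C12 is among them is not known. Cleavage sites and crosslinks thus come from different sources of RNA.

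The libraries held 6738355 reads with CU5T45 and 3482826 with oligo(dT)10-25, and the CLIP files 1101047 and 1352122 distinct alignments. At this depth a count of 0 allows up to 3 reads, or 0.445 CPM (counts per 1000000 reads) with CU5T45 and 0.861 CPM with oligo(dT)10-25. Since each oligo has 1 library, no p-value was computed. Each interval covers counting error only and is too narrow where reads are PCR copies of 1 molecule or where CLIP alignments stand in groups. The CLIP replicates were counted as 1 sample. A chi-square test of their counts near 6392 sites gave 0.232 for each degree of freedom, so they differed by less than the sampling noise. In the Cstf3 window, 351 alignments were identical in both files, which is 84.2% of replicate 1 and 67.4% of replicate 2. Over the whole series the shares were close to these, at 80.7% and 65.7%.

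The most used sites of Cstf3 were an intronic site and a distal site, 55996 nt apart. The intronic site, taken as the site with most reads over 10000 nt upstream of the distal one, lay at 104449585. It had 7 CU5T45 reads and 4 oligo(dT)10-25 reads. The distal site, at 104505581, had 33 CU5T45 reads and 5 oligo(dT)10-25 reads. These 2 sites were the only members of the window with 10 or more reads. Of all 49 CU5T45 reads on the plus strand, the intronic site held 14.3% and the distal site 67.3%. Of the 21 oligo(dT)10-25 reads they held 19.0% and 23.8%, so most reads of that library lay at other positions of the window.

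The spacing of the intronic site and of another kept site from the distal site was that of annotated Cstf3 transcript ends. The distal site was set to the end of the full-length transcript, so its own match was fixed in advance. The annotation used, GENCODE vM21, is of the GRCm38 build, so distances between ends were compared and no coordinate was carried over. In it Cstf3 (ENSMUSG00000027176.8) runs over chr2:104590523-104665429 of GRCm38 on the plus strand, with 21 exons in the protein-coding transcript Cstf3-201. The transcript Cstf3-206 ends 56000 nt before Cstf3-201, 4 nt from the spacing of the intronic and the distal site. It ends 243 nt past exon 3, inside intron 3, which is 35102 nt long. Cstf3-202 ends further along the same intron, 1977 nt after Cstf3-206 and 54023 nt before the end of Cstf3-201. Another kept site, at 104451564, lay 54017 nt before the distal site, 6 nt from that spacing. The other 3 annotated Cstf3 transcripts end 690 to 1991 nt before Cstf3-201, and no kept site had such a spacing. Both intronic transcripts are annotated as retained introns without a protein.

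The last 30 bases of these 3 transcripts are shown because they are the ends that the sites match by spacing. They are written 5′ to 3′ on the transcribed strand from the GENCODE vM21 transcripts, with the poly(A) signal in capitals, at GRCm38 chr2:104609400-104609429, chr2:104611377-104611406 and chr2:104665400-104665429. The fourth sequence, chr2:104609430-104609459, is what follows the end of Cstf3-206, read from Cstf3-202, which runs on past it. This is where CstF64 is known to bind at a cleavage site, and its longest run of T is in capitals.
Cstf3-206 end: tgcaacaacATTAAAacagtttcaatggtg
Cstf3-202 end: gaaAATAAAgctttgttaatacgttgttgt
Cstf3-201 end: aaaggAATAAAaggacctcaaaaacatgcc
after the Cstf3-206 end: ttggagtgctttagccTTTTatttacttgt

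These last 30 bases were searched on the transcribed strand for AATAAA, the most common poly(A) signal, and for its variant ATTAAA. The end of Cstf3-206, which matches the intronic site, carried ATTAAA 21 nt before the end. The Cstf3-202 end carried AATAAA, starting 27 nt before the end, and the distal end carried it 25 nt before the end. Among 58793 protein-coding transcripts of the annotation, 35.5% held AATAAA in their last 30 bases and 9.74% held ATTAAA. The bases after the Cstf3-206 end were searched for TTTT, which began 17 nt beyond it, and 36.5% of 74 windows of 30 nt along intron 3 in Cstf3-202 held TTTT. In Cstf3-202 a run of 53 alternating T and G lay 888 to 940 nt after the Cstf3-206 end, and it was the longest such run in that transcript. Read from the start codon of Cstf3-201, the frame of Cstf3-202 held 105 codons before a stop in intron 3, of which 75 came from exons 1 to 3 and 30 from the intron. The full-length coding sequence has 717 codons.

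At both sites the reads gathered on a few neighbouring nucleotides. At the intronic site, 5 of 7 CU5T45 reads (71.4%, 95% exact interval 29.0 to 96.3) ended at 104449585. The 4 oligo(dT)10-25 reads were spread over the same 3 adjacent positions, with 2 of them at 104449583, 2 nt upstream (50.0%, interval 6.76 to 93.2). Of the 33 CU5T45 reads at the distal site, 25 (75.8%, interval 57.7 to 88.9) ended at 104505581. The same position took 4 of the 5 oligo(dT)10-25 reads (80.0%, interval 28.4 to 99.5). All reads of the distal site lay within 6 nt. With so few reads, a difference in the place of cleavage between the oligos was not detectable.

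**Figure D1:**
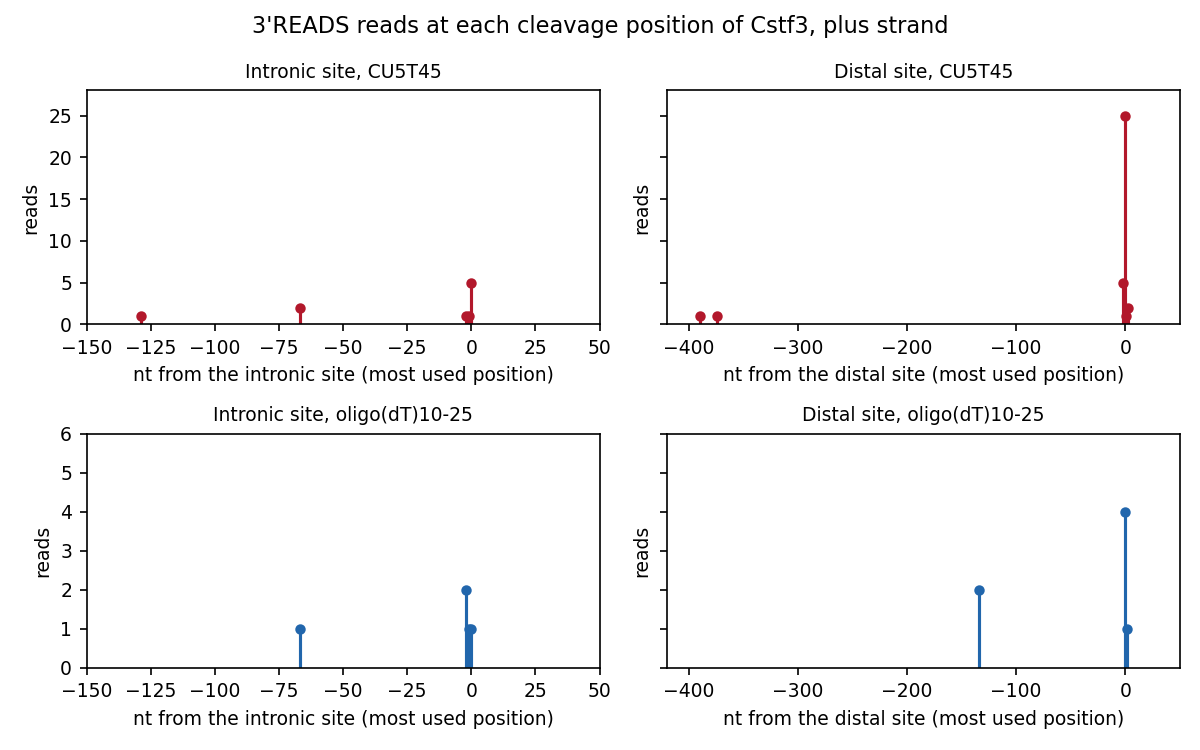
Reads (vertical axis) at each plus-strand cleavage position against the distance in nt from the intronic site (left) and the distal site (right), with CU5T45 above and oligo(dT)10-25 below on another scale, 1 library each. The tallest line is the 25 CU5T45 reads at the distal position, and the reads of the intronic site sit on 3 adjacent positions in both libraries. Lines further upstream in each panel belong to other sites of the window.

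**Figure D2:**
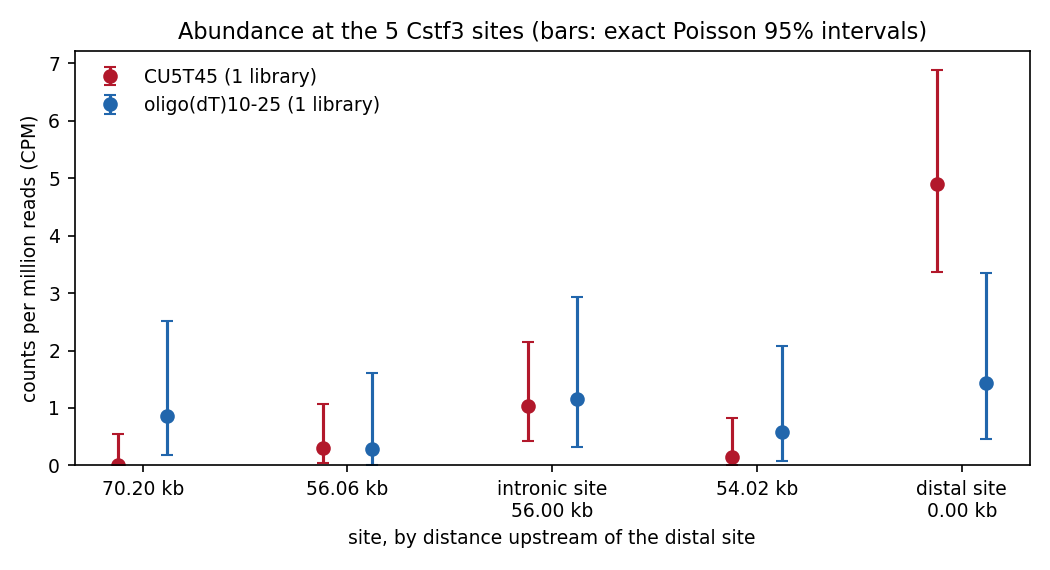
Abundance in CPM (vertical axis) of the 5 kept sites, ordered by their distance upstream of the distal site, with CU5T45 to the left of oligo(dT)10-25 at each and exact Poisson 95% intervals as bars. The intervals of both libraries overlap at the 4 upstream sites, and at the distal site the lower CU5T45 bound of 3.37 CPM lies just above the upper oligo(dT)10-25 bound of 3.35 CPM.

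The comparison of the oligos asks whether both beads captured the same Cstf3 ends in the same amounts. The intronic site had 1.04 CPM with CU5T45 (exact Poisson interval 0.418 to 2.14) and 1.15 CPM with oligo(dT)10-25 (0.313 to 2.94). The ratio was 0.905, and its exact conditional binomial interval of 0.230 to 4.21 leaves differences of several fold in either direction undetected. The distal site had 4.90 CPM with CU5T45 (3.37 to 6.88) and 1.44 CPM with oligo(dT)10-25 (0.466 to 3.35). Its share of reads was 3.41 times as high with CU5T45 (interval 1.32 to 11.2). Its share of cleavage positions, each counted once whatever its reads, was 1.53 times as high (interval 0.220 to 16.9). That value compares 4 positions with CU5T45 and 2 with oligo(dT)10-25, and not amounts of RNA. For 27.5% of the 16684 sites of the series that reached 30 reads, the share of reads was higher with CU5T45 and its interval above 1. Of the 16684 sites, 1.75% were called 4-fold higher, which the distal site was not. Being higher with CU5T45 was thus common among well-measured sites. In the CPM of a bulk mix, more cells with Cstf3 RNA and more of it per cell cannot be told apart. Both oligos were used on RNA of the same mix, so this limit concerns the CPM values and not the ratio between the oligos.

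The intronic site took 7 of the 43 CU5T45 reads at the 5 sites (16.3%, exact interval 6.81 to 30.7), and 33.3% (7.49 to 70.1) of the positions with such a read. It took 4 of 15 such reads with oligo(dT)10-25 (26.7%, interval 7.79 to 55.1), and 33.3% (7.49 to 70.1) of the positions. Counted so, the 25 CU5T45 reads at the most used distal position become 1. The shares by position thus describe how many positions were used, and not how much each site was used. Their intervals take positions as independent. The distal site took 76.7% with CU5T45 (61.4 to 88.2) and 33.3% with oligo(dT)10-25 (11.8 to 61.6), so its intervals still overlapped by a narrow margin. For the balance between both sites there were 0.212 intronic reads per distal read with CU5T45 and 0.800 with oligo(dT)10-25. The odds ratio of this balance was 0.274 with an exact interval of 0.0444 to 1.74. A shift between intronic and distal ends was therefore not detectable at this depth.

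The other 3 kept sites had 3 reads each. The site at 104451564, which matches the end of Cstf3-202, had 1 CU5T45 read and 2 oligo(dT)10-25 reads spread over 8 nt. The site at 104449518, 67 nt upstream of the intronic site, had 2 CU5T45 reads and 1 oligo(dT)10-25 read, all at 1 position. It also lies, by its distance of 56063 nt from the distal site, in intron 3, and no annotated Cstf3 transcript end had this spacing. Together the 3 sites of intron 3 held 10 of 43 reads with CU5T45 (23.3%, interval 11.8 to 38.6). With oligo(dT)10-25 they held 7 of 15 reads (46.7%, interval 21.3 to 73.4). The last kept site, at 104435383 and 70198 nt upstream of the distal site, had 0 CU5T45 reads and 3 oligo(dT)10-25 reads. No annotated Cstf3 transcript end had this spacing.

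The remaining 9 sites of the window had 1 or 2 reads. Over all 14 sites, 4 had reads of both oligos, 4 had CU5T45 reads only and 6 had oligo(dT)10-25 reads only. On the minus strand, used as background, 5 sites had a read, and only 1 reached 3 reads. It lay 990 nt beyond the distal site, at 104506571, with 1 CU5T45 and 3 oligo(dT)10-25 reads. In all, the plus strand held 49 CU5T45 and 21 oligo(dT)10-25 reads, against 4 and 4 on the minus strand. The annotation places another gene, Tcp11l1, on the opposite strand, and in GRCm38 it overlaps the last 8142 nt of Cstf3.

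CstF64 crosslinks were far denser in intron 3 than at the end of the gene. The plus strand of the window held 399 distinct alignments in replicate 1 and 496 in replicate 2. Of these, 314 (78.7%, exact interval 74.3 to 82.6) and 387 (78.0%, interval 74.1 to 81.6) lay in the stretch with the distances of intron 3, which makes up 43.9% of the window. The minus strand held 18 and 25 alignments, so the plus strand had 22.2 (interval 13.8 to 37.8) and 19.8 (13.3 to 31.0) times as many. Leaving out the stretch matching Tcp11l1 and what lies beyond it, 384 and 475 plus-strand alignments stood against 2 and 3 on the minus strand. In that stretch itself, 10.6 kb up to the end of the window, the strands were nearly even, with 15 and 21 on the plus strand against 16 and 22 on the minus strand.

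Along the gene, the alignments were densest in the first 10 kb after the intronic site and fewer further on, but not in an even decline. The 1 kb step that began 8000 nt downstream held 0 alignments in both replicates. That which began 12000 nt downstream held 29 and 36. From the start of the window to the intronic site there were 2.87 per kb in replicate 1 and 3.38 in replicate 2. In the first 10 kb downstream of the intronic site there were 20.3 (exact Poisson interval 17.6 to 23.3) and 24.1 (21.2 to 27.3) per kb, or 50.9% and 48.6% of all plus-strand alignments in 12.5% of the window. The next 10 kb held 7.60 and 10.2 per kb, and the stretch from 20 to 30 kb held 2.20 and 2.90. From 40 to 50 kb downstream the values were 0.600 and 1.10 per kb, and from there to the distal site 1.00 and 1.17. After the distal site, over the last 2.42 kb of the window, they were 3.72 (1.70 to 7.06) and 5.79 (3.16 to 9.71) per kb. The same steps held 0 minus-strand alignments from the intronic site to 50 kb downstream in both replicates, and those after the distal site held 5 and 7. Between 50 kb downstream and the distal site, within the stretch matching Tcp11l1, the plus strand held fewer than the minus strand, 6 and 7 against 11 and 15. The amount of unspliced and spliced Cstf3 RNA in C2C12 cells was not measured here, and its part in these densities was not tested.

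**Figure D3:**
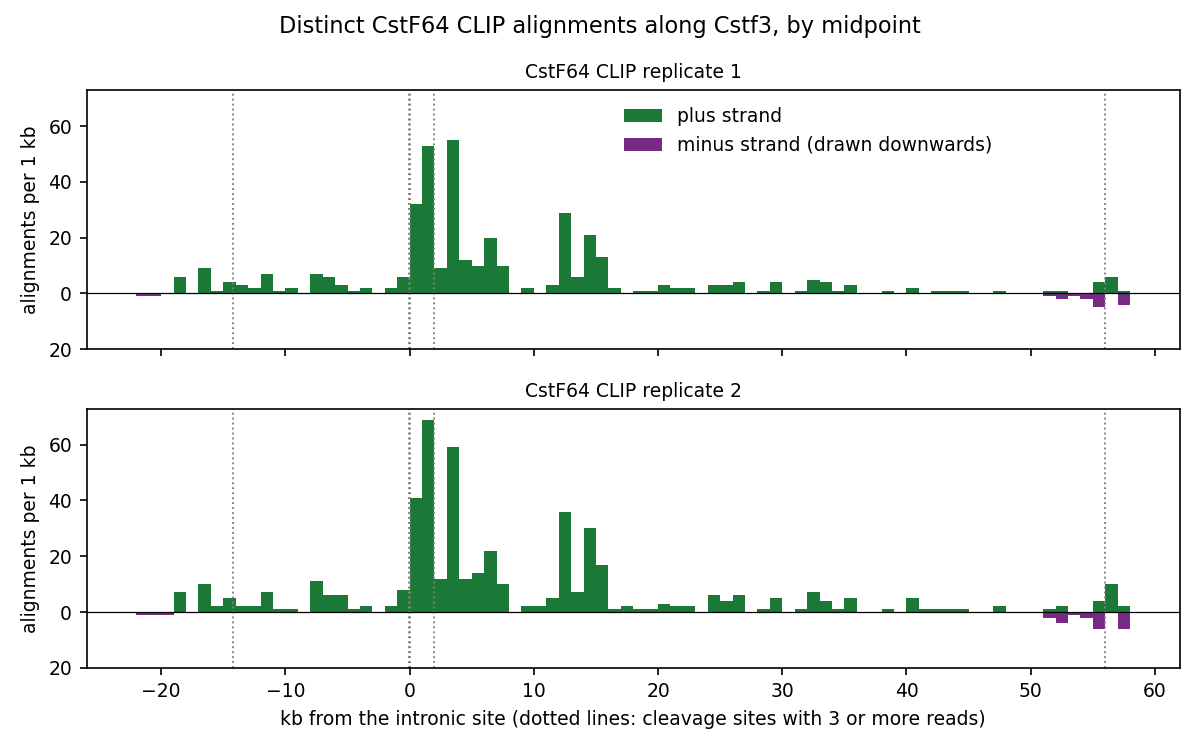
Distinct CstF64 CLIP alignments per 1 kb (vertical axis), plus strand upwards and minus strand downwards, against the distance in kb from the intronic site, 1 panel per replicate, with dotted lines at the 5 kept cleavage sites. The tallest bars stand within 10 kb downstream of the intronic site, at up to 55 and 69 alignments per 1 kb. After a gap, a further group begins 12000 nt downstream, at up to 29 and 36. The minus strand is nearly empty outside the last few kb.

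Near the intronic site, the contrast between its sides depended on the length of the flanks. In the 1000 nt downstream of it there were 32 and 41 alignments, against 6 and 8 in the 1000 nt upstream. Downstream over upstream, this is 5.33-fold in replicate 1 (exact interval 2.20 to 15.6) and 5.13-fold in replicate 2 (2.37 to 12.7). Within 500 nt there were 12 and 16 alignments downstream against 5 and 7 upstream, or 2.40-fold (0.787 to 8.70) and 2.29-fold (0.890 to 6.57), and both intervals include 1. From 300 to 500 nt downstream there were 0 alignments in both replicates, while the 40 nt from 960 to 1000 nt held 11 and 16. By the distances of the annotation, intron 3 begins 243 nt before the end of Cstf3-206, so the upstream flanks reach back past its start. Whether the density changes at the site or at the start of the intron was not tested.

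The densest 1 kb steps of the gene began 1000 and 3000 nt downstream in both replicates. The step at 1000 nt held 53 alignments in replicate 1 and 69 in replicate 2, and that at 3000 nt held 55 and 59. Nuclear steps of 1 kb with any alignment in the series had a median of 2 alignments. Of them, 0.144% were as dense as 55 in replicate 1, and 0.125% as dense as 69 in replicate 2. The Cstf3 steps were picked as the densest of the gene, so the shares are a description.

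At the intronic site itself, 10 and 13 alignments had their midpoint within 100 nt on the plus strand (exact Poisson intervals 4.80 to 18.4 and 6.92 to 22.2), and 0 on the minus strand. That is 49.8 and 64.7 per kb, against 19.6 and 23.1 per kb in the rest of the first 10 kb downstream. The density at the site was thus 2.54-fold higher in replicate 1 (1.20 to 4.77) and 2.80-fold in replicate 2 (1.47 to 4.88). These intervals take alignments as independent, but alignments stood in groups along the intron, so the intervals are too narrow. By alignments in the lower replicate, the group at the site ranked 8 of 184 in the window, so the higher density was not particular to it. Most of these alignments lay beyond the cleavage position: 7 of 10 and 8 of 13 began downstream of it, 2 and 4 spanned it, and 1 in each ended upstream. Their median midpoint lay 56.8 and 54.0 nt downstream. Within 50 nt there were only 2 and 4 alignments.

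The site matching the end of Cstf3-202 had as many crosslinks, placed differently. It had 12 alignments in replicate 1 (6.20 to 21.0) and 18 in replicate 2 (10.7 to 28.4) within 100 nt, all of them within 50 nt. Of these, 6 and 8 ended upstream of the cleavage position, 5 and 8 spanned it, and 1 and 2 began downstream. Their median midpoint lay 23.8 and 19.0 nt upstream.

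The distal site, with the most reads, had the fewest crosslinks of these 3 sites. It had 1 alignment in each replicate within 100 nt (interval 0.0253 to 5.57), 41.5 nt downstream of cleavage. A small group stood further away, from 133 to 196 nt downstream, with 5 alignments in replicate 1 and 9 in replicate 2, so that within 200 nt the distal site had 6 and 10. The intronic site had 1.05 alignments per 3'READS read, from the mean of the replicates within 100 nt, and the distal site 0.0263. This ratio sets crosslinks in C2C12 cells against reads of the mix and is not a rate of binding. The sites at 104435383 and 104449518 had 3 and 4, and 3 and 5 alignments, and the window of 104449518 overlaps that of the intronic site.

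Set against the 56112 kept nuclear sites of the series, 4.34% had 10 or more alignments within 100 nt in each replicate. The intronic site and the site matching Cstf3-202 were among them, and the distal site was not. For 1 or more alignments in each replicate the share was 37.2%, and all 5 kept Cstf3 sites met it. By reads, the intronic site stood near the middle: 51.6% of nuclear sites had fewer reads, with a median of 10 over all, against its 11. By alignments it ranked high, as 96.0% had fewer. For the distal site, 73.8% had fewer reads and 62.4% fewer alignments. The median over all nuclear sites was 0 alignments, against 1 at the distal site, so this rank rests on a single alignment.

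**Figure D4:**
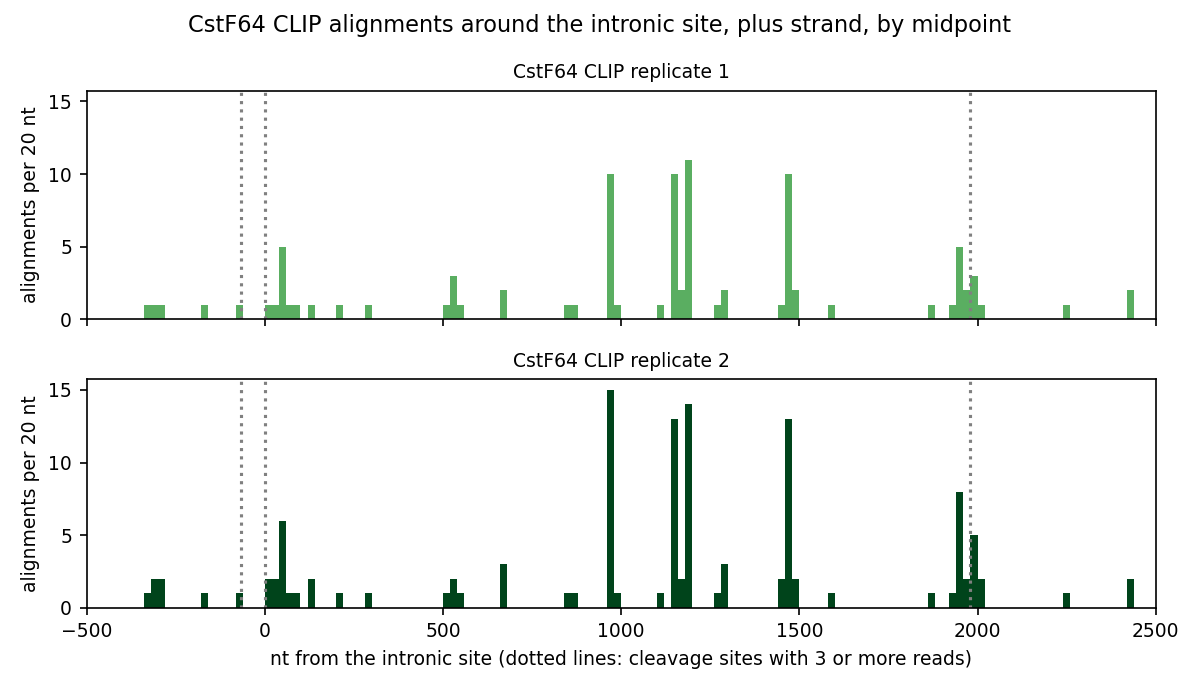
CstF64 CLIP alignments per 20 nt (vertical axis) on the plus strand against the distance in nt from the intronic site, 1 panel per replicate, with dotted lines at kept cleavage sites. Beside the groups at the intronic site and near 1979 nt, taller groups of up to 11 and 15 alignments stand between 900 and 1500 nt, where no kept cleavage site lies.

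Most of the 10 strongest crosslink regions of Cstf3 held no kept cleavage site. Alignments of both replicates that overlapped were chained into 184 plus-strand regions, of which 17 were seen in 1 replicate alone and 19 had 5 or more alignments in each replicate. Of the 10 regions with most alignments in the lower replicate, all 10 had the distances of intron 3, and 9 lay within 10 kb downstream of the intronic site. Only 2 of the 10 held a kept cleavage site: the region from 6 nt before to 96 nt after the intronic site, with 9 and 12 alignments, and the region at the site matching Cstf3-202, with 12 and 18. The strongest region ran from 1085 to 1219 nt after the intronic site, at 104450670 to 104450804, with 24 and 30 alignments. The nearest kept cleavage site was 760 nt away. The share of crosslink regions with a kept site over the whole series was not computed, so whether 2 of 10 is unusual is not known. With 49 CU5T45 and 21 oligo(dT)10-25 reads on the plus strand, rarely used sites can also be missed.

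The next regions had fewer alignments than the strongest. The region from 3862 to 3971 nt after the intronic site had 15 and 14 alignments, that from 1439 to 1514 nt had 13 and 17, and that from 6614 to 6698 nt had 12 and 12. The region from 3578 to 3679 nt had 12 and 11 alignments, and that from 3759 to 3833 nt had 10 and 7. The region from 940 to 1002 nt had 11 and 16 alignments. In Cstf3-202, the run of alternating T and G lies just before this distance, 888 to 940 nt after the Cstf3-206 end. From 880 to 960 nt after the intronic site, 0 alignments had their midpoint in either replicate. Whether CstF64 contacts the run was not tested. The comparison is of distances in different builds, and the sequence under the alignments was not read. The only region of the 10 beyond 10 kb, from 12758 to 12843 nt, had 9 alignments in each replicate. The group 133 to 196 nt beyond the distal site, the strongest near the 3′ end, ranked 19 of 184.

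Sites elsewhere with the most similar values were looked up by 3 values, log2(CPM + 1) with each oligo and log2 of the mean alignments + 1. For the intronic site the nearest was on chromosome 4 at 11477755, plus strand, with 7 CU5T45 and 4 oligo(dT)10-25 reads and 9 and 12 alignments, at a distance of 0.12. Then came chromosome 6 at 85897469 and chromosome 9 at 59241017, both on the minus strand with 6 CU5T45 and 4 oligo(dT)10-25 reads. For the distal site the nearest was on chromosome 13 at 97419028, minus strand, with 34 and 5 reads and 1 alignment in each replicate, at a distance of 0.04. The next were chromosome 13 at 99043872, plus strand, and at 69636878, minus strand. Such likeness over 3 values of 4 libraries says that read and crosslink counts were alike, and nothing of the genes at these sites.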

How the data were processed

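Deposited read counts are whole numbers without a stated normalization, per the labels: 1 line per cleavage position in the 3'READS files and 1 line per distinct alignment in the CLIP files. CLIP results count these lines, each once whatever its reads, and counting every read was an alternative. Per the submitters' processing notes, the build is mm9 and the tools are Bowtie and Novoalign; roles, versions and read filters are not given in the sources used here. Per the labels' protocols, 12 cycles of PCR and reads of 72 nt were used for 3'READS. Positions are printed as deposited, and whether they count from 0 or 1 is not stated.

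Positions of both oligos were chained at gaps of at most 24 nt, and sites with 3 or more reads were kept. Ratios of shares were computed for all sites of the series, with exact conditional binomial 95% intervals. Calls over the series, and the test of the ratios on simulated data, used sites with 30 or more reads. The intronic site, with 11 reads, was below that minimum. Shares have Clopper-Pearson intervals and CLIP counts exact Poisson intervals. CLIP alignments were placed by their midpoint. Named sites are all kept members, the 10 largest CLIP regions, the minus-strand site with most reads and the 3 sites nearest in value. The members and lists were chosen with earlier results of these data known. The annotation was of another build, GRCm38, so distances only were compared, and other cleavage factor genes were not analysed here. Intervals were computed with scipy 1.17.1, tables with pandas 2.3.3 and numpy 2.4.6, and figures with matplotlib 3.10.9, under Python 3.11.15.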

Additional observations from a re-analysis of the deposited data

How the results depend on the processing

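Of 60 values recomputed under alternatives, 53 stayed within the counting interval of the value reported, or within 1.5 times it for the number of sites, and 0 changed direction. Part of this count was fixed in advance. Gaps of 10 or 50 nt and other minimum reads could not change the ratios of the intronic and distal sites, which stayed at 0.905 and 3.41. Many intervals are also wide, so the count is no measure of robustness. With no minimum of reads there were 14 sites in place of 5, and with 10 or more reads 2. Counting each position once, the intronic share with CU5T45 was 33.3%, which is a share of positions and not of reads. Within 50 nt the intronic site had a mean of 3 CLIP alignments, and within 200 nt the distal site had 8. Without the stretch matching Tcp11l1, an alternative chosen after seeing the data, the plus strand had 172 times the minus-strand alignments. With flanks of 500 nt, also chosen then, the alignments downstream over upstream of the intronic site were 2.40-fold and 2.29-fold. Counting the 3 sites of intron 3 together was likewise chosen after seeing the data. Leaving out each CLIP replicate gave 10 to 13 alignments at the intronic site, 1 at the distal site and strand ratios of 19.8 to 22.2. In the window 84.2% of replicate 1 alignments were identical in replicate 2, so this alternative could change little. No paired analysis was possible because each oligo had 1 library. The cause of these shifts was not tested. Depth limits these values: the sites rest on 3 to 38 reads. With each position counted once the distal ratio was 1.53, within the wide interval of the ratio by reads, but it compares numbers of positions.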
